A study of Homo sapiens with 4 samples.

Results

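The proteasome genes described here are the 50 protein-coding genes of the RefSeq GRCh38.p14 table whose symbols start with PSMA, PSMB, PSMC, PSMD, PSME, PSMF or PSMG, out of 20037 protein-coding genes on the assembled chromosomes. The proteasome is the protease that degrades proteins tagged with ubiquitin. Its core particle is a barrel of stacked alpha and beta rings, with the cutting sites inside the beta rings. A regulatory particle caps the core, where a ring of ATPases unfolds substrates and non-ATPase subunits recognise ubiquitin and remove it. Other activators can replace that cap, and dedicated chaperones assemble the core and the cap but leave the finished complex. By role, the set holds 8 alpha ring genes, 7 constitutive beta ring genes, 4 alternative catalytic beta genes, 6 ATPase genes, 11 non-ATPase genes, 7 assembly chaperone genes and 5 activator or inhibitor genes. The other 2, PSME3IP1 and PSMC3IP, match by their prefix but encode no subunit. PSME3IP1 is a binding partner of PSME3, and PSMC3IP is a factor of meiotic recombination.

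The binding of FOXK1, a forkhead transcription factor, was measured by ChIP-seq in HK-2, a human cell line immortalised from epithelium of the proximal tubule. One culture condition was HK-2 cells given 10 ng/ml TGF-β1, a cytokine of fibrotic signalling, for 24 h, and the other was HK-2 cells without it. Per condition there was 1 FOXK1 library and 1 input made without antibody, and the deposited data are 1 list of peaks per condition. Replicates were lacking, so no effect of TGF-β1 was tested, and all values compare 2 libraries of a single line. The series' design text mentions a transfection of the cells without saying of what. The series relates FOXK1 to glycolysis and renal fibrosis, and the proteasome genes are not named in its design.

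A boundary peak is one that overlaps the 1 kb on each side of the lower or higher annotated coordinate of a gene, and its height is the authors' value for the peak, read here as a pileup of reads from the form of the numbers, since the files carry no header. Each gene is described by its highest boundary peak per list. Strong peaks are at least as high as the 10000th highest of a list, a height of 15 in the TGF-β1 list and 17 in the control list. The TGF-β1 list held 439136 peaks on assembled chromosomes and the control list 381700, each with a median height of 5. Read depth was not given in the sources used here, and height moves with depth, so heights of the lists stand side by side and are no measure of change. As a check of the label, 9 and 7 of 15 proximal tubule marker genes had a boundary peak in the TGF-β1 and control lists. So did 7 and 7 of 11 markers of other cells and 74.6% and 75.3% of all genes, so the peaks do not single out the labelled cell type. KRT8 and KRT18, the epithelial keratin pair, shared a peak of 71 and 89, while LRP2, HNF4A and AQP1 had none, and a peak is not a measure of expression.

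Most proteasome genes had a FOXK1 peak of some height at an end of the gene, and 27 in the TGF-β1 list and 34 in the control list had one of height 10 or more, where 32.7% and 39.9% of all genes did. A boundary peak was found for 46 of the 50 genes in the TGF-β1 list, where 74.6% of all protein-coding genes had one, and for 46 in the control list, where 75.3% had one. Both lists had 43 of them, against 64.0% of all genes. PSMB11 had a peak in neither list, 3 genes had one in the TGF-β1 list only and 3 in the control list only, where the background was 10.5% and 11.3%. The median height over the 50 genes, counting a gene without a peak as 0, was 10 in the TGF-β1 list and 11.5 in the control list, and over all protein-coding genes it was 7 and 8. The highest values of the set were 41 in the TGF-β1 list and 47 in the control list.

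**Figure D1:**
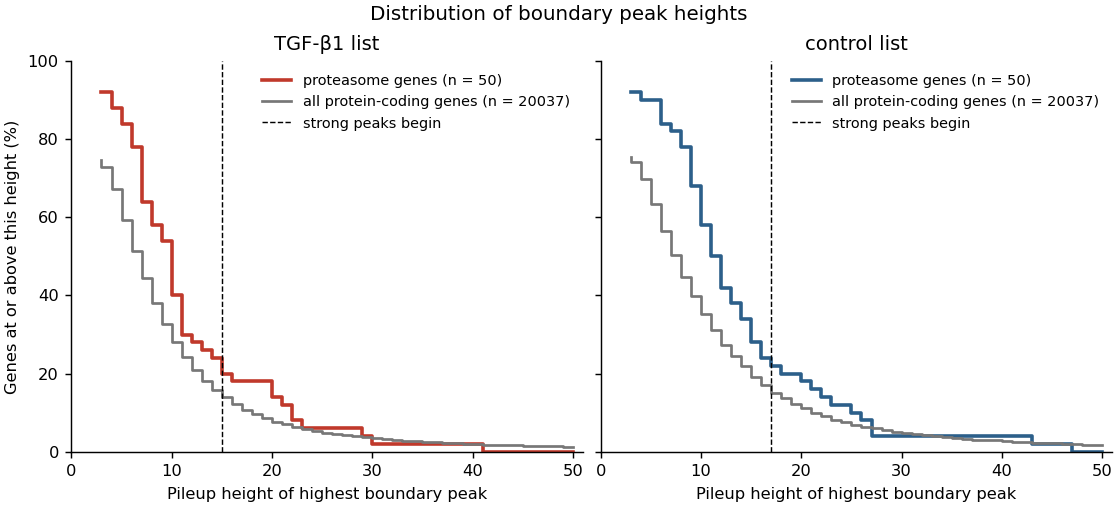
Share of genes (vertical axis, percent) whose highest boundary peak reached a given pileup height (horizontal axis) in the TGF-β1 list (left) and the control list (right), for the 50 proteasome genes and all 20037 protein-coding genes. The proteasome curve starts at 92% in each list. It lies above the curve of all genes up to a height of 30 in the TGF-β1 list and 27 in the control list. Beyond these heights it lies partly below that curve, and it reaches 0 at 42 and 48.

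Strong peaks were about as frequent at proteasome genes as at other genes with CpG-rich promoters. A strong boundary peak was found for 12 of the 50 genes in the TGF-β1 list, against 15.7% of all genes, and for 12 in the control list, against 17.0%. Most proteasome promoters are CpG-rich. Of the 44 genes with an entry in the RefSeq promoter table, 39 had a promoter window with an observed to expected CpG ratio of 0.6 or more, against 70.3% of all genes with an entry. Among all 11133 genes with such a promoter, 21.5% had a strong boundary peak in the TGF-β1 list and 23.3% in the control list, and of the 39 proteasome genes 9 did in each list. Peaks of any height were found for 85.1% and 86.1% of those 11133 genes, and for 36 of the 39 proteasome genes in each list. Peaks of height 10 or more were found for 43.8% and 53.0% of the 11133 genes, and for 20 and 26 of the 39. The median height was 9 and 10 over the 11133 genes, and 10 and 11 over the 39.

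The strong peaks were spread unevenly over the roles. Of the 50 genes, 9 were strong in both lists, where 11.9% of all genes were. These 9 were PSMB1, PSMB2, PSMB4 and PSMB6 of the beta ring, PSMD2 and PSMD7 of the regulatory particle, the chaperones PSMD5 and PSMD9, and the activator PSME4. Strong in the TGF-β1 list only were PSMB10, PSME3 and PSME3IP1, and 3.77% of all genes were. Strong in the control list only were PSMB8, PSMD3 and PSMD4, and 5.10% of all genes were. Where 15.7% and 17.0% of all genes were strong in the TGF-β1 and control lists, the alpha ring and the ATPases had 0 strong genes. Their highest values were 14 and 16 for the alpha ring and 12 and 16 for the ATPases, where strong peaks begin at 15 and 17. Counted down to the 20000th highest peak, both roles hold strong genes, such as PSMA3 and PSMC6 in the control list. The roles hold 4 to 11 genes each, and whether they differ was not tested.

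**Figure D2:**
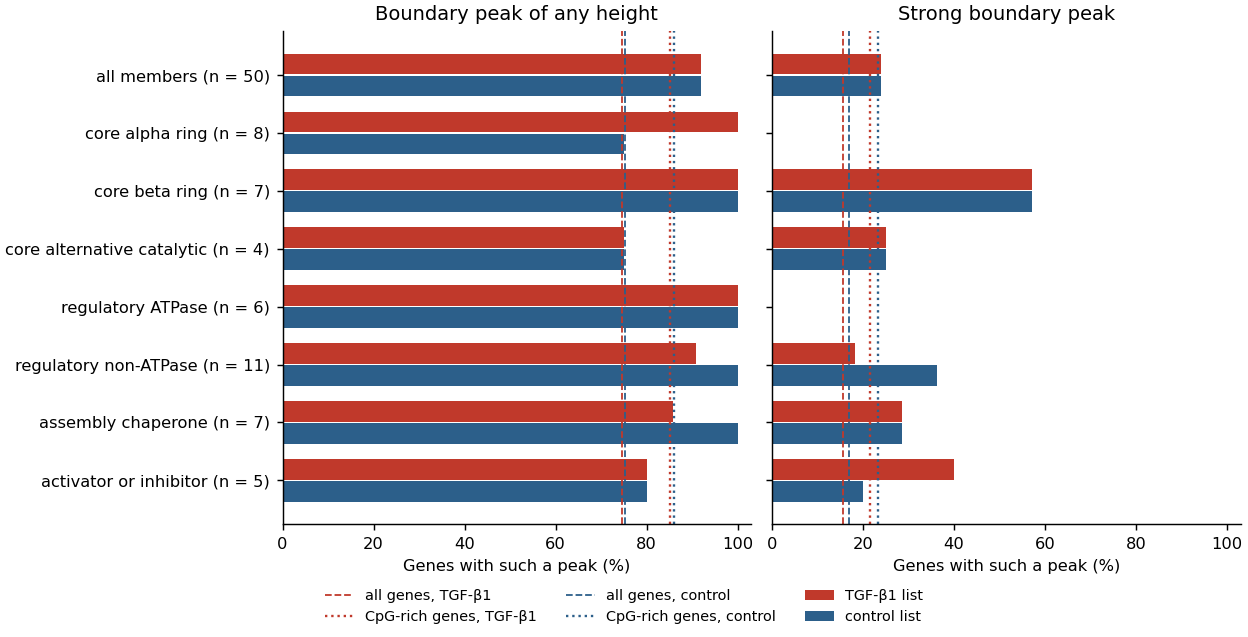
Percent of genes of each role with a boundary peak of any height (left) and with a strong one (right), with the TGF-β1 bar above the control bar. Dashed lines give all protein-coding genes and dotted lines the genes with CpG-rich promoters. The beta ring stands at 57.1% strong in each list, and the alpha ring and the ATPases at 0.

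**Figure D3:**
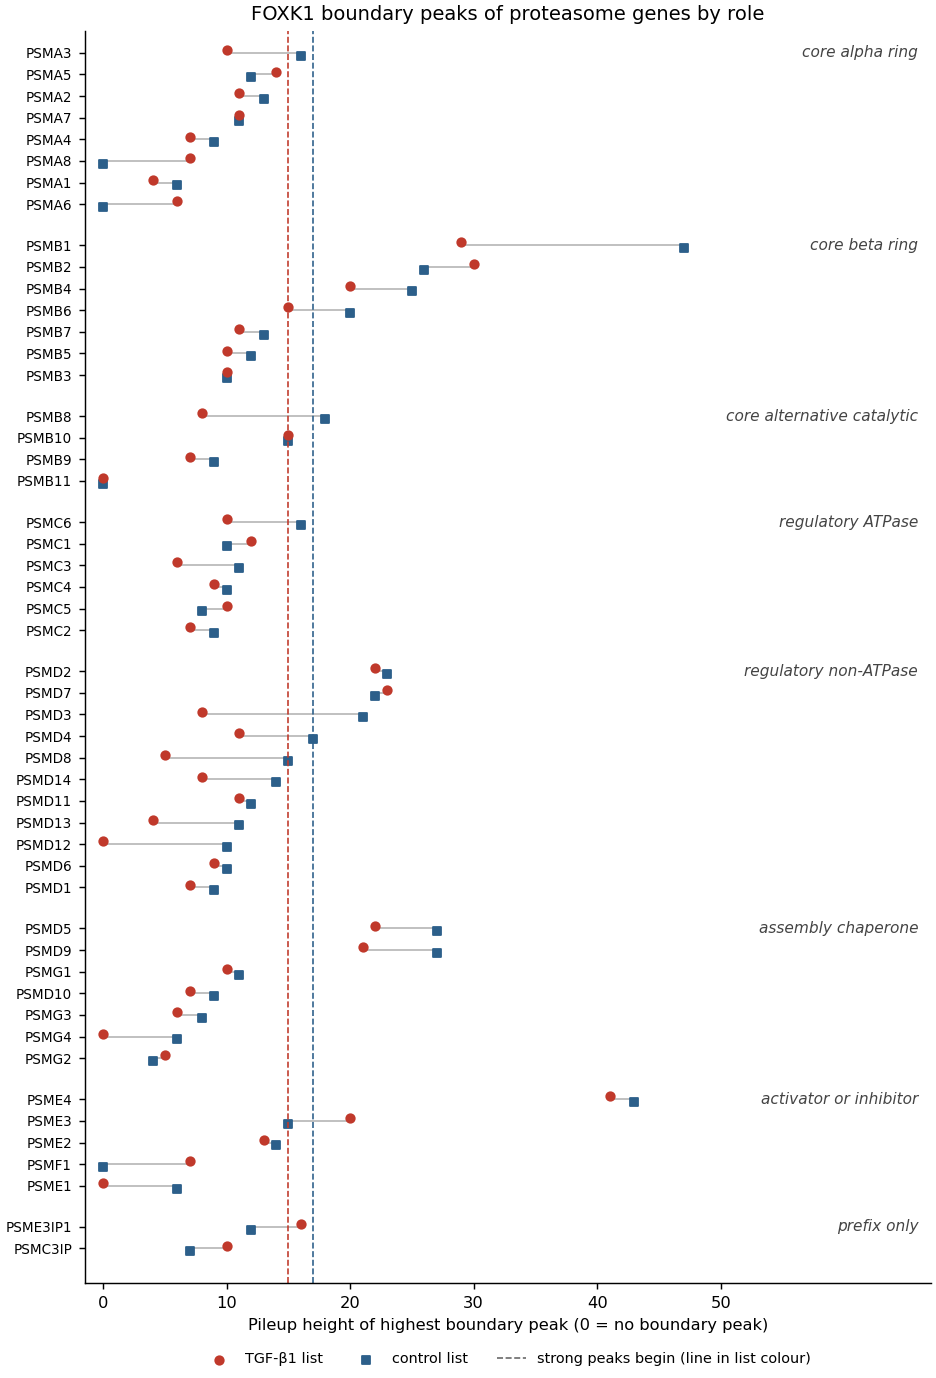
Pileup height of the highest boundary peak (horizontal axis) of each of the 50 genes in the TGF-β1 list (circles) and the control list (squares), by role, with 0 for no boundary peak. PSMB1 and PSME4 lie farthest right, and each alpha ring and ATPase value lies left of the dashed line where strong peaks of its list begin.

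The constitutive beta ring had the highest share of strong genes of the roles, 4 of 7 in each list. In the TGF-β1 and control lists 15.7% and 17.0% of all genes were strong. Of genes with CpG-rich promoters 21.5% and 23.3% were. All 7 beta ring genes had a boundary peak of height 10 or more in both lists, where 28.5% of all genes did. PSMB1, a beta subunit without a cutting site, had a height of 29 in the TGF-β1 list and 47 in the control list. Its TGF-β1 peak covered chr6:170552518-170554881 (hg38), over the higher-coordinate end of PSMB1, and it also lay at an end of the neighbour TBP, the TATA-binding protein. PSMB2, another subunit without a cutting site, had 30 and 26, and both peaks covered its annotated start. PSMB4, which completes the ring, had 20 and 25. Its control peak ran across the start as 1 interval. In the TGF-β1 list the same stretch was listed as separate peaks of 17 at the start and 20 downstream of it. PSMB6, a catalytic subunit with caspase-like activity, had 15 and 20 at its lower-coordinate end. The other catalytic subunits were lower, with 10 and 12 for PSMB5, the chymotrypsin-like one and the main target of bortezomib, and 11 and 13 for PSMB7, the trypsin-like one. PSMB3 had 10 and 10, from a peak upstream of its start that it shared with PCGF2.

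The alternative catalytic genes ranged widely. PSMB8, PSMB9 and PSMB10 encode the interferon-induced subunits of the immunoproteasome, and PSMB11 encodes a subunit of the thymus. PSMB8 had 8 in the TGF-β1 list and 18 in the control list at overlapping places. PSMB9 had 7 and 9. The peaks of both genes also lay at an end of TAP1, the peptide transporter subunit of the same cluster on chromosome 6. PSMB10 had 15 and 15, and neither peak covered its start, since the midpoints lay 1038 and 1025 bp downstream. PSMB11, with no boundary peak in either list, had a CpG ratio of 0.17 in its promoter.

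The 8 alpha ring genes had no strong peak, where 15.7% and 17.0% of all genes had one in the TGF-β1 and control lists. Alpha ring heights lay between 4 and 14 in the TGF-β1 list and between 0 and 16 in the control list. Their medians were 8.5 and 10, against 7 and 8 over all protein-coding genes and 9 and 10 over genes with CpG-rich promoters. PSMA3 was highest in the control list, with 10 in the TGF-β1 list and 16 in the control list, and PSMA5 highest in the TGF-β1 list, with 14 and 12. PSMA2 had 11 and 13 from a peak shared with MRPL32, a mitochondrial ribosomal protein gene. PSMA1 had only 4 and 6 at its gene ends and PSMA6 had 6 and no peak. Both genes have an annotated start far inside the gene interval, and within 1 kb of it PSMA1 had 13 and 15 and PSMA6 had 7 and 8. PSMA8, the alpha subunit of the testis, had 7 in the TGF-β1 list, at the far end from its start, and no peak in the control list.

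All 6 ATPases of the regulatory particle, which form the ring that unfolds substrates, had boundary peaks in both lists, where 64.0% of all genes did. None was strong, where 15.7% and 17.0% of all genes were in the TGF-β1 and control lists. The ATPase heights lay between 6 and 12 in the TGF-β1 list and between 8 and 16 in the control list. PSMC6 was highest in the control list, with 10 in the TGF-β1 list and 16 in the control list, and PSMC1 highest in the TGF-β1 list, with 12 and 10. PSMC3 had 6 and 11. At PSMC5 the lists did not share a place. Its TGF-β1 peak of 10 had its midpoint at -1061 bp from a start, and its control peak of 8 lay at the other end, next to SMARCD2, with no control peak within 1 kb of a start.

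Of the non-ATPase subunits of the regulatory particle, PSMD2 and PSMD7 had strong peaks in both lists. PSMD2, one of the large scaffold subunits, had 22 in the TGF-β1 list and 23 in the control list, and both peaks covered its start. PSMD7, the partner of the deubiquitinase subunit, had 23 and 22. The higher TGF-β1 peak lay downstream of its start, where the peak that covered the start had 8. PSMD3 had 8 and 21, and PSMD4, a ubiquitin receptor, had 11 and 17. PSMD14, the deubiquitinase itself, had 8 and 14. PSMD12 had no boundary peak in the TGF-β1 list and 10 in the control list. PSMD8 had 5 at its far end in the TGF-β1 list and 15 across its start in the control list, with no TGF-β1 peak within 1 kb of the start. The remaining 4 genes, PSMD1, PSMD6, PSMD11 and PSMD13, had 4 to 11 and 9 to 12.

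Among the chaperones, PSMD5 and PSMD9 stood apart from the rest. Both help assemble the ATPase ring. PSMD5 had 22 in the TGF-β1 list and 27 in the control list, and PSMD9 had 21 and 27, with both peaks shared with HPD, an enzyme of tyrosine breakdown. PSMD10, known as gankyrin and also a chaperone of that ring, had 7 and 9. PSMG1 to PSMG4, which pair up to assemble the alpha ring, had no strong peak. PSMG1 had 10 and 11, PSMG3 6 and 8, PSMG2 5 and 4, and PSMG4 no peak and 6. For PSMG4 the annotated start lies inside the gene interval, and the peaks within 1 kb of it had 10 and 12.

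The activators and the inhibitor ranged from 0 to 41 in the TGF-β1 list and from 0 to 43 in the control list. PSME4, an activator linked to acetylated histones and DNA repair, had 41 in the TGF-β1 list and 43 in the control list, the highest TGF-β1 value of the 50 genes. These peaks lay inside the gene, with midpoints 1483 and 1421 bp downstream of its start, and the TGF-β1 peak also lay at an end of ACYP2. The peaks that covered the start itself had 6 and 8. With a window of 500 bp the highest peaks of PSME4 were these low ones. PSME3, the nuclear activator, had 20 and 15, and PSME2, a subunit of the interferon-induced activator, had 13 and 14 from a peak shared with RNF31. Its partner PSME1 had no boundary peak in the TGF-β1 list and 6 in the control list. PSMF1, the inhibitor, had 7 and no peak at its gene ends, and 12 and 19 within 1 kb of an annotated start inside the gene. Of the genes that match by prefix only, PSME3IP1 had 16 and 12 and PSMC3IP 10 and 7.

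**Figure D4:**
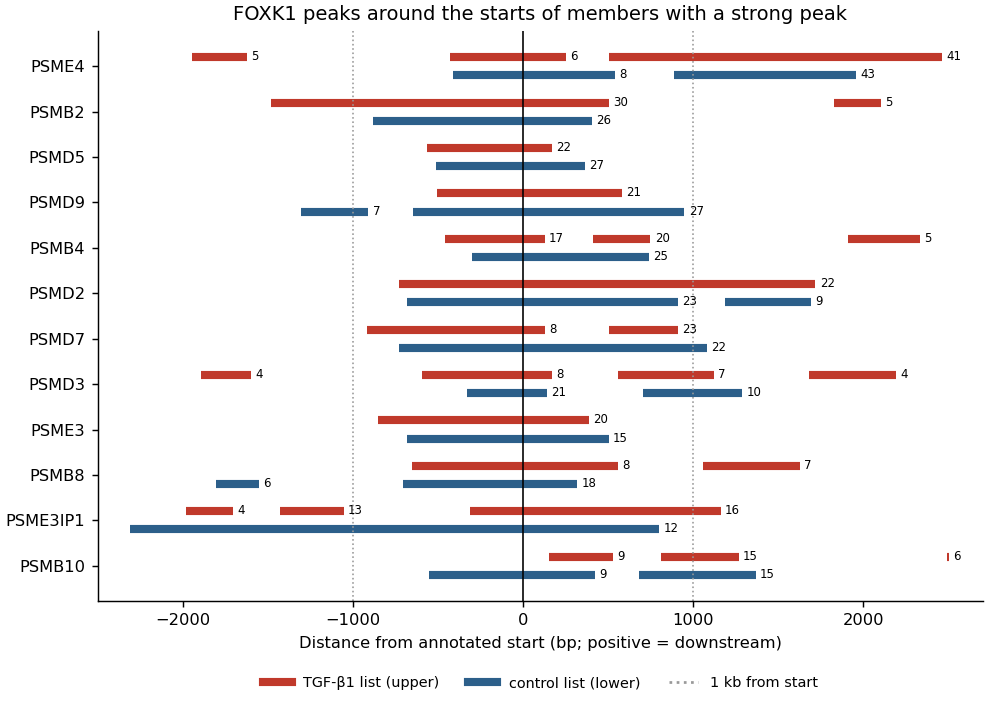
FOXK1 peaks by distance from the annotated start (horizontal axis, bp, positive is downstream) for the 12 genes that were strong in either list and had an entry in the promoter table. Each gene has its TGF-β1 peaks above its control peaks, and numbers give pileup heights. The highest peaks of PSMB2, PSMD5, PSMD9 and PSMD2 cross the start in both lists, and those of PSME4 and PSMB10 lie downstream of it.

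The highest peaks of the lists mostly overlapped, and many covered the start of the gene. Of the 43 genes with a boundary peak in each list, the highest peaks overlapped by at least 1 bp for 36, against 71.8% of all such genes. They covered at least 0.5 of each other for 23, against 43.5%. The highest peaks did not overlap for PSMC2, PSMC5, PSMD1, PSMD8, PSMD11, PSMG1 and PSMG2. At PSMC2, PSMD1, PSMD11, PSMG1 and PSMG2 another peak of the other list did overlap a highest peak. At PSMC5 and PSMD8 none did. Of the 40 genes with a promoter entry and a peak, the highest peak covered an annotated start for 21 in the TGF-β1 list, where 44.9% of all such genes did, and for 29 in the control list, where 49.3% did. Counted around annotated starts instead of gene ends, 39 and 41 of the 44 genes had a peak, against 70.0% and 71.0% of all genes with an entry. A strong peak there was found for 10 and 10, against 16.6% and 18.2%. The height was lower in the TGF-β1 list for 31 of the 43 genes, and for 60.1% of all genes with a peak in both lists. The highest peak was shared with another protein-coding gene for 13 genes in the TGF-β1 list and 14 in the control list, against 25.7% and 26.0%.

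The promoter sequences that lay under strong peaks of both lists were searched for the letters of the forkhead motif and of elements known at proteasome promoters. Windows run from 250 bases before to 50 after each annotated start (RefSeq, GRCh38.p14), 55 windows for 44 genes, and some windows of a gene overlap. Of the 55 windows, 5 lay under a peak of strong height in both lists, those of PSMB2, PSMD5, PSMD9, PSMB4 and the first start of PSMD2. The first 4 are shown, chosen by the higher of the values of both lists on the window, 5′ to 3′ on the strand of the gene. Capitals mark the forkhead motif GTAAACA, the CCAAT box and the antioxidant element TGACNNNGC, on either strand, and PSMB4 has none of them.
PSMB2, chr1:35641477-35641776, minus strand: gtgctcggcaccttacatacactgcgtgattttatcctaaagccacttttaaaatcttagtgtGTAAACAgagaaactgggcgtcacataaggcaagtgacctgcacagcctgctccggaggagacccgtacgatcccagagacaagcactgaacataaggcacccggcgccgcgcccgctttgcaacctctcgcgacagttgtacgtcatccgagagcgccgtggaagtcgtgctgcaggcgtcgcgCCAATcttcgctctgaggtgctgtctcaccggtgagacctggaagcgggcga
PSMD5, chr9:120842873-120843172, minus strand: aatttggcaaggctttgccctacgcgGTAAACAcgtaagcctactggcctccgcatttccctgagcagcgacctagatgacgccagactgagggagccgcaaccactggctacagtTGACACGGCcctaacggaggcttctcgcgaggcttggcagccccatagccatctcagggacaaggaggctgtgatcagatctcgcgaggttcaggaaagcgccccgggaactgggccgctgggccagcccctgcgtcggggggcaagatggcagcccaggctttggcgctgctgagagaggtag
PSMD9, chr12:121888540-121888839, plus strand: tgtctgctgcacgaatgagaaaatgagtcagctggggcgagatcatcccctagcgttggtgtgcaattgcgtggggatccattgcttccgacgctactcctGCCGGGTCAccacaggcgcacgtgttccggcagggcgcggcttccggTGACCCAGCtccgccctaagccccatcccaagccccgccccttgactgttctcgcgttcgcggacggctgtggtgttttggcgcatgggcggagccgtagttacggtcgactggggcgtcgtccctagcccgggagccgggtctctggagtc
PSMB4, chr1:151399323-151399622, plus strand: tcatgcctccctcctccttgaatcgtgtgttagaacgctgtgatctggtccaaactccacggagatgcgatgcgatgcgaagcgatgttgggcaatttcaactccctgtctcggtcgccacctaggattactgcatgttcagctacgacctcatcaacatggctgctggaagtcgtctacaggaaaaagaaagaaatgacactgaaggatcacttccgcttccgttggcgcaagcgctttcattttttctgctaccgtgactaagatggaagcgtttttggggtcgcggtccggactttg

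The forkhead motif was in the windows of PSMB2 and PSMD5 and in no other proteasome window. With the start base counted as 0, it began at -187 in PSMB2, which also has a CCAAT box at -2, and at -224 in PSMD5. Both windows lay under strong peaks, with 30 and 26 on that of PSMB2 and 22 and 27 on that of PSMD5, while the other 3 windows under strong peaks of both lists lacked these letters. Of all 22199 windows of protein-coding genes, 2.85% held the motif, and of the proteasome windows 2 of 55, or 3.64%. Of all 1956 windows under strong peaks of both lists, 8.69% held the motif. Among all windows the share was 24.6% and 22.8% where the TGF-β1 or control peak on the window had a height of 50 or more. It was 6.80% and 5.67% at heights of 20 to 49, 2.40% and 1.73% at 10 to 19, 2.23% and 2.11% at 3 to 9, and 2.42% and 2.56% without a peak. No proteasome window had a peak of 50 or more. The shorter core TAAACA, which overlaps the motif, was in 4 proteasome windows, the other 2 being those of PSMB5 and PSMC5, and in 9.54% of all windows.

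**Figure D5:**
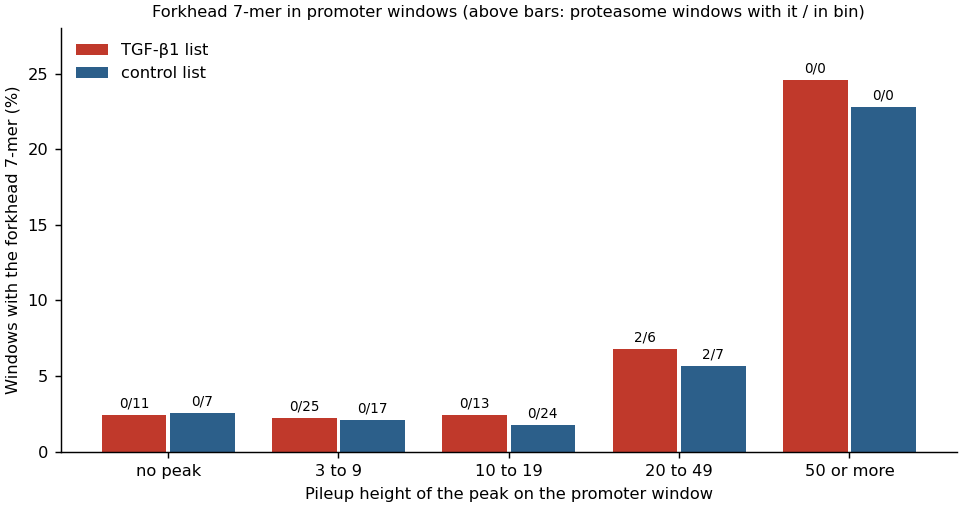
Percent of all promoter windows that hold the forkhead motif (vertical axis) by the height of the peak on the window (horizontal axis), in the TGF-β1 list (left bars) and the control list (right bars). Numbers above the bars give the proteasome windows with the motif out of those in the height class. The share is highest at heights of 50 or more, a class with 0 proteasome windows.

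The antioxidant element, the site of the CNC-bZIP factor NFE2L1 that induces proteasome genes when the proteasome is inhibited, was in 15 of the 55 windows, or 27.3%, and in 13.8% of all windows. It was in the windows of PSMD9 at -149 and -102, of PSMD3 at -37 and 33, and of PSMD5 at -134. Windows with low peaks or none held it too, among them those of PSME1 at -86 and PSMD12 at -165. Neither of these had a TGF-β1 peak on the window, and their control peaks had 6 and 10. The CCAAT box, bound by NF-Y, was in 24 of the 55 windows, or 43.6%, and in 34.7% of all. The E2F letters TTTCGCGC and the cyclic AMP element TGACGTCA were in 0 of the 55, and in 0.712% and 2.26% of all windows. Both strands were searched, and a match of letters is a description and not a site.

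Genes that work with the proteasome but carry other symbols can be set beside these. Of 34 such genes, 32 had a boundary peak in the TGF-β1 list and 30 in the control list, against 74.6% and 75.3% of all genes. Of the 34, 11 and 12 were strong, against 15.7% and 17.0%, and 9 were strong in both lists, against 11.9%. The median height over the 34 was 11 and 10.5, against 7 and 8 over all genes. AKIRIN2, which brings proteasomes into the nucleus, had 38 in the TGF-β1 list and 37 in the control list. The ubiquitin gene UBB had 23 and 42, and UBQLN1, a shuttle that carries ubiquitinated proteins to the proteasome, had 30 and 32. The proteasome-bound ligase UBE3C had 23 and 33, and the deubiquitinase UCHL5 had 19 and 32 from a peak shared with RO60. The transcription factor NFE2L1 had 11 and 10, NFE2L2 had 14 and 22, and the core assembly factor POMP had 11 and 9. SEM1, the smallest subunit of the regulatory particle, had no boundary peak in either list.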

How the data were processed

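FOXK1 peaks were analysed in HK-2 cells given TGF-β1 (10 ng/ml, 24 h) and in untreated cells, 1 FOXK1 library and 1 input each. The deposited signal was 1 value per peak, in whole numbers of at least 3, read as the pileup height of MACS2 from its form because no header names it, and listed by the authors separately for each condition. Per the submitters' processing notes, bcl2fastq 2.17, MACS2 2.1.1.20160309 and hg38 were used. The aligner, read filters, treatment of reads that map to several places, scaling and depth were not given in the sources used, and the table of genes holds 53 pseudogenes with these prefixes. Starts were read as counting from 0, and printed starts could differ by 1 bp. Strand and starts came from the RefSeq promoter table (GRCh38.p14), which matched 44 of the 50 genes. Analysis used Python 3.11.15, numpy 2.4.6, pandas 2.3.3 and matplotlib 3.10.9. Peak assignment was checked on simulated peaks. Named were the highest genes, role extremes, genes strong in 1 list only and genes without a peak in either or both lists. A few others, such as PSMA2 and PSME2, were named after their values were seen. The promoter windows shown are those with the highest peak on the window itself, by the higher of both lists, where the planned rule took the highest peak near a start. Members and lists were chosen with earlier results of these data known. Lacking replicates, no test was made, and counts over all members stand beside the same share of all protein-coding genes.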

Additional observations from a re-analysis of the deposited data

How the results depend on the processing

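Depth is unknown and limits what low peaks show. With peaks of height 10 or more only, 27 genes had a boundary peak in the TGF-β1 list (32.7% of all genes) and 25 had one in both lists (28.5%). At an annotated start 24 had one in the TGF-β1 list, against 34.4% of all genes with a promoter entry. The highest peaks overlapped for 23 of the 25, against 92.7% of all genes with a boundary peak of that height in both lists. When 0.5 of each peak had to be covered by the other, the highest peaks overlapped for 23 genes, against 43.5% of all genes with a peak in both lists. Strong peaks down to the 5000th highest were found at 7 and 7 genes in the TGF-β1 and control lists, against 7.65% and 9.10% of all genes, and down to the 20000th at 20 and 21, against 28.1% and 27.4%. The median height was 8 and 11 with a window of 500 bp and 12 in the control list with 2 kb, and with peak midpoints in the window it was 9 and 11. For the counts and medians above, stricter settings can only lower them and looser ones only raise them, so the setting fixed the direction of each move. The window does not fix the direction for the count of overlapping highest peaks. That count was 36 as reported, 38 with 500 bp and 34 with 2 kb. What set the size of the moves was not tested. Other counts stayed within 1.5 times of those reported under windows of 500 bp and 2 kb, peaks of height 5 or more and midpoints. They also did so with annotated starts only and without the genes that match by prefix only. The same held for the control list counts with peaks of height 10 or more. With CpG-rich genes as background, 85.1% and 86.1% had a boundary peak, against 74.6% and 75.3% of all genes. For windows of 500 bp and 2 kb and for midpoints, no background share is given here. No library could be left out with 1 per condition. No paired analysis was possible because each condition had 1 FOXK1 library and no test was made.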
